A study of Homo sapiens with 24 samples.

Results

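The spliceosome core genes are described here in 2 human multiple myeloma cell lines treated with a CDK7 inhibitor. The genes were taken by symbol, as every name that begins with SNRP plus a letter, or with SNRNP, LSM, SF3A, SF3B, PRPF or U2AF plus a digit. The rule found 58 of the 26249 genes in the files. H929 and MM1S are established lines grown in RPMI medium in multiwell plates, each standing for 1 genetic background. Bulk RNA was read from the 3′ ends of transcripts in 24 libraries, 3 in each of 8 groups. The treated groups were H929 with YKL-5-124 (hereafter YKL), labelled 83 nM, for 6 h and for 24 h, and MM1S with the same compound labelled 98 nM, for 6 h and for 24 h. Each had a group of the same line and time given DMSO, the vehicle. The series title names CDK7 inhibition as the subject. DMSO samples carry the same dose figure as the YKL samples of their line, so line and dose cannot be told apart. Nothing in the labels says that replicates were separate cultures, and p-values here may reflect technical spread alone.

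Introns are removed by the spliceosome, which is built from small nuclear RNAs and their proteins (snRNPs). Sm proteins form a ring around the U1, U2, U4 and U5 RNAs, and LSM proteins form a like ring at the end of U6. U1 marks the 5′ splice site, while U2AF and the SF3A and SF3B complexes of U2 mark the 3′ splice site and the branch site. The U4/U6.U5 tri-snRNP then brings in what becomes the active site. CDK7 is the kinase of the general transcription factor TFIIH, which phosphorylates RNA polymerase II, and it also activates cell cycle kinases. Myeloma cells are malignant plasma cells, which make large amounts of secreted protein.

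Promoter sequence was at hand for 47 of the 58 genes, from the start sites of RefSeq on GRCh38.p14. The 150 bases before the start are shown for SNRPF, SNRPB and LSM2, which were lower with YKL at 24 h in both lines once rescaled, and for SF3B1 and PRPF18, which were not. SNRPF lies at chr12:95858802-95858951 on the + strand, SNRPB at chr20:2470790-2470939 on the - strand and LSM2 at chr6:31806967-31807116 on the - strand. SF3B1 lies at chr2:197435094-197435243 on the - strand and PRPF18 at chr10:13586815-13586964 on the + strand. Each stretch runs 5′ to 3′ along its gene and ends at the base before the annotated 5′ end. Capitals mark any of 9 short motifs, searched on both strands.
SNRPF: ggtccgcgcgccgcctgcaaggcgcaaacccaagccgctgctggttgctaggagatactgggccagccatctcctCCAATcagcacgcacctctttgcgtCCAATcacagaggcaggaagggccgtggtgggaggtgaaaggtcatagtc
SNRPB: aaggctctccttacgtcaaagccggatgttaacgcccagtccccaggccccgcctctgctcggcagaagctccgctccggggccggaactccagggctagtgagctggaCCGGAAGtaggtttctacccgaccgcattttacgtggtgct
LSM2: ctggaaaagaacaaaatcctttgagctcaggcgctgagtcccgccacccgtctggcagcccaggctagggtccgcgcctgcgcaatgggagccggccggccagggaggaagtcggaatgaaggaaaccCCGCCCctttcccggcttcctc
SF3B1: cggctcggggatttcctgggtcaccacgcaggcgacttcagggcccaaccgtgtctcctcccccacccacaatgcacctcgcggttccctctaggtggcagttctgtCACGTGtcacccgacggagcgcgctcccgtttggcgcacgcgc
PRPF18: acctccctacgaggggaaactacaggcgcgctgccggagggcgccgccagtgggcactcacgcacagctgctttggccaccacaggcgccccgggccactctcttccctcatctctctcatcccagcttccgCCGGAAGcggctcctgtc
In the 250 bases before the start, the ETS motif CCGGAAG stood in 42.6% of the 47 member promoters, in 16.5% of the 9051 promoters of genes that passed the expression filter and in 8.78% of all 27305 promoters. It was in 4 of 6 Sm ring promoters, 2 of 6 of the U6 LSM ring, 8 of 10 of the U2 and SF3 genes and 3 of 7 of the tri-snRNP. The GC box GGGCGG stood in 61.7% of member promoters, 66.4% of those of genes that passed the filter and 42.2% of all. The shares that follow are, in turn, of member promoters, of promoters of genes that passed the filter and of all promoters. For the CCAAT box, spelled as its name, the shares were 40.4%, 35.8% and 33.0%. The TATA box, searched as TATAAA, had shares of 2.13%, 5.34% and 11.2%. The E-box, searched as CACGTG, had 4.26%, 9.36% and 6.46%. NRF1, searched as GCATGCGC, had 8.51%, 5.12% and 2.83%. YY1, searched as AAGATGGC, had 2.13%, 1.99% and 1.39%. The CRE, searched as TGACGTCA, had 2.13%, 2.99% and 1.75%. E2F, searched as TTTCCCGC, was in 0 member promoters, 2.38% of those of genes that passed and 1.42% of all. Motifs could overlap. A match describes letters and is no evidence of a factor's binding. Genes with no entry included SNRPD1, SNRPD2P2, LSM1, LSM6, LSM14A, PRPF3, PRPF39, PRPF4B, SF3B3 and SNRNP35. For 43 of the 47 the listed start lay within 100 bases of the gene's 5′ end.

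Each result is given on the deposited FPKM scale and again after median-of-ratios rescaling, which sets the bulk of genes level. The rescaling factors ran from 0.361 to 2.02. Mean summed FPKM was lower with YKL than with DMSO in every line and time, most in H929 at 24 h (1001160 against 1943970). In bulk RNA, fewer cells of a type and less RNA per cell cannot be told apart. Spike-in RNAs scattered by 0.155 to 0.329 (SD, log2) in 22 libraries. They scattered by 0.964 in replicate 2 of MM1S with YKL for 6 h and by 0.58 in replicate 1 of MM1S with DMSO for 24 h. SDC1, a plasma cell marker, stood at 155 to 777 FPKM in all libraries. CD38, another, was low, at 9.23 to 20.4 FPKM in H929 and 0.253 to 2.46 FPKM in MM1S with DMSO. The summed level of 8 plasma cell markers was itself lower with YKL in H929, at 6 h (3779 to 5701 FPKM, against 6653 to 8433 FPKM with DMSO) and at 24 h (2428 to 4604 FPKM, against 6041 to 6915 FPKM with DMSO). In MM1S the sums overlapped at 6 h (2849 to 3132 FPKM with YKL, 3013 to 4186 FPKM with DMSO). They also overlapped there at 24 h (1587 to 2030 FPKM with YKL, 1079 to 2489 FPKM with DMSO). These marker sums are on the deposited scale only, on which the summed FPKM of all genes was lower too. The part of the marker level in the results was not tested. With DMSO, FGFR3, a marker of H929, stood at 23.0 to 31.1 FPKM in H929 and at most 0.473 FPKM in MM1S. MAF, a marker of MM1S, did not separate the lines (13.9 to 23.4 FPKM in H929 and 10.9 to 54.0 FPKM in MM1S). Summed markers reached at most 4.15 FPKM for T cells, 1.62 for monocytes and 2.15 for epithelial cells or fibroblasts.

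The members made up 0.598% to 1.01% of a library's summed gene FPKM. FPKM divides reads by gene length, which 3′ end reads do not follow, so an order of levels between genes is a rough description. On deposited FPKM per length, SF3B5 had the highest DMSO group mean (4251), followed by SNRPD2 (2295), U2AF1 (2226) and LSM7 (2212). LSM12, SNRPN, which makes an Sm protein best known from neurons, and the pseudogene SNRPD2P2 stayed near the floor and did not pass the filter of 1 FPKM in 3 libraries. The other 55 were tested together with all 12418 genes that passed. Pseudogenes are named for 21 members, with 20 each for SNRPC and SNRPG, 11 for SNRPE, 5 for LSM3 and 4 for SNRPF. Reads of these genes may be shared with near-identical copies, so their values are less certain.

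At 24 h with YKL, most spliceosome genes were lower in H929 as deposited, and in MM1S mainly those of the Sm and LSM rings were. In H929 at 24 h, 45 of the 55 members were lower (35.4% of all genes tested were). In MM1S, 14 were lower at 6 h (10% of all genes) and 10 at 24 h (6.77% of all genes). In H929 at 6 h, limma called 0 (2.19% of all genes, either direction), with 9 at an unadjusted p under 0.05, all lower. All shares of all genes are at the adjusted threshold. Counts at an unadjusted p, here and below, have no such share beside them and are not shown to be particular to the members. No member was higher as deposited. The median log2 change of the members, YKL over DMSO, was -0.25 in H929 at 6 h against -0.06 for all genes, and -1.13 at 24 h against -0.46. In MM1S it was -0.63 at 6 h against -0.29, and -0.43 at 24 h against -0.12.

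After rescaling, fewer members were lower in H929 at 24 h and some were higher. Lower were 8 in H929 at 6 h (4.19% of all genes) and 24 at 24 h (12.5%). In MM1S 9 were lower at 6 h (7.22%) and 16 at 24 h (13.3%). Higher were 2 in H929 at 24 h (20.8% of all genes), 6 in MM1S at 6 h (8.25%) and 6 in MM1S at 24 h (14.4%). Per gene, rescaling shifted the log2 change upward by a median, over all genes, of 0.17 (6 h) and 0.71 (24 h) in H929. In MM1S this median shift per gene was 0.39 (6 h) and 0.24 (24 h). The members' medians became -0.05 and -0.31 in H929, and -0.19 and -0.21 in MM1S. The median of all genes, deposited minus rescaled, was -0.13 (6 h) and -0.59 (24 h) in H929. In MM1S it was -0.34 (6 h) and -0.17 (24 h). The rescaled median of all genes was thus slightly positive in each comparison. All 24 lower in H929 at 24 h and all 9 in MM1S at 6 h were also lower as deposited, as were 10 of the 16 in MM1S at 24 h. No member was lower on one scale and higher on the other in these comparisons.

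Several of these counts turned on the fit or on single libraries. With only the compared libraries in the fit, the 14 in MM1S at 6 h became 33 and the 10 at 24 h became 1, and with no filter on low values both became 6. As deposited, the 0 in H929 at 6 h became 2 without DMSO replicate 1, and the 45 at 24 h became 30 without YKL replicate 2. In MM1S at 6 h the 14 became 1, 1 and 6 without DMSO replicates 1, 2 and 3, and 6, 3 and 2 without YKL replicates 1, 2 and 3. At 24 h in MM1S the 10 became 3 without DMSO replicate 2, 18 without DMSO replicate 3, 4 without YKL replicate 1 and 5 without YKL replicate 2. Rescaled, the 8 in H929 at 6 h became 3 without DMSO replicate 2 and 5 without YKL replicate 1 or 2. The 15 called either way in MM1S at 6 h became 5 without DMSO replicate 3, 6 without YKL replicate 1 and 9 without YKL replicate 2 or 3. Lower calls that held whichever library was left out numbered 30 of 45, 1 of 14 and 3 of 10 as deposited (H929 at 24 h, MM1S at 6 h, MM1S at 24 h). In MM1S at 6 h the deposited calls of LSM2, SNRPD1, PRPF4, PRPF19, U2AF2 and SNRNP48 held in 0 of 6 such fits each. Rescaled, they numbered 3 of 8 and 20 of 24 in H929 and 4 of 9 and 12 of 16 in MM1S. Higher calls that held, all rescaled, numbered 1 of 2 in H929 at 24 h. In MM1S they numbered 0 of 6 at 6 h and 4 of 6 at 24 h.

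**Figure D1:**
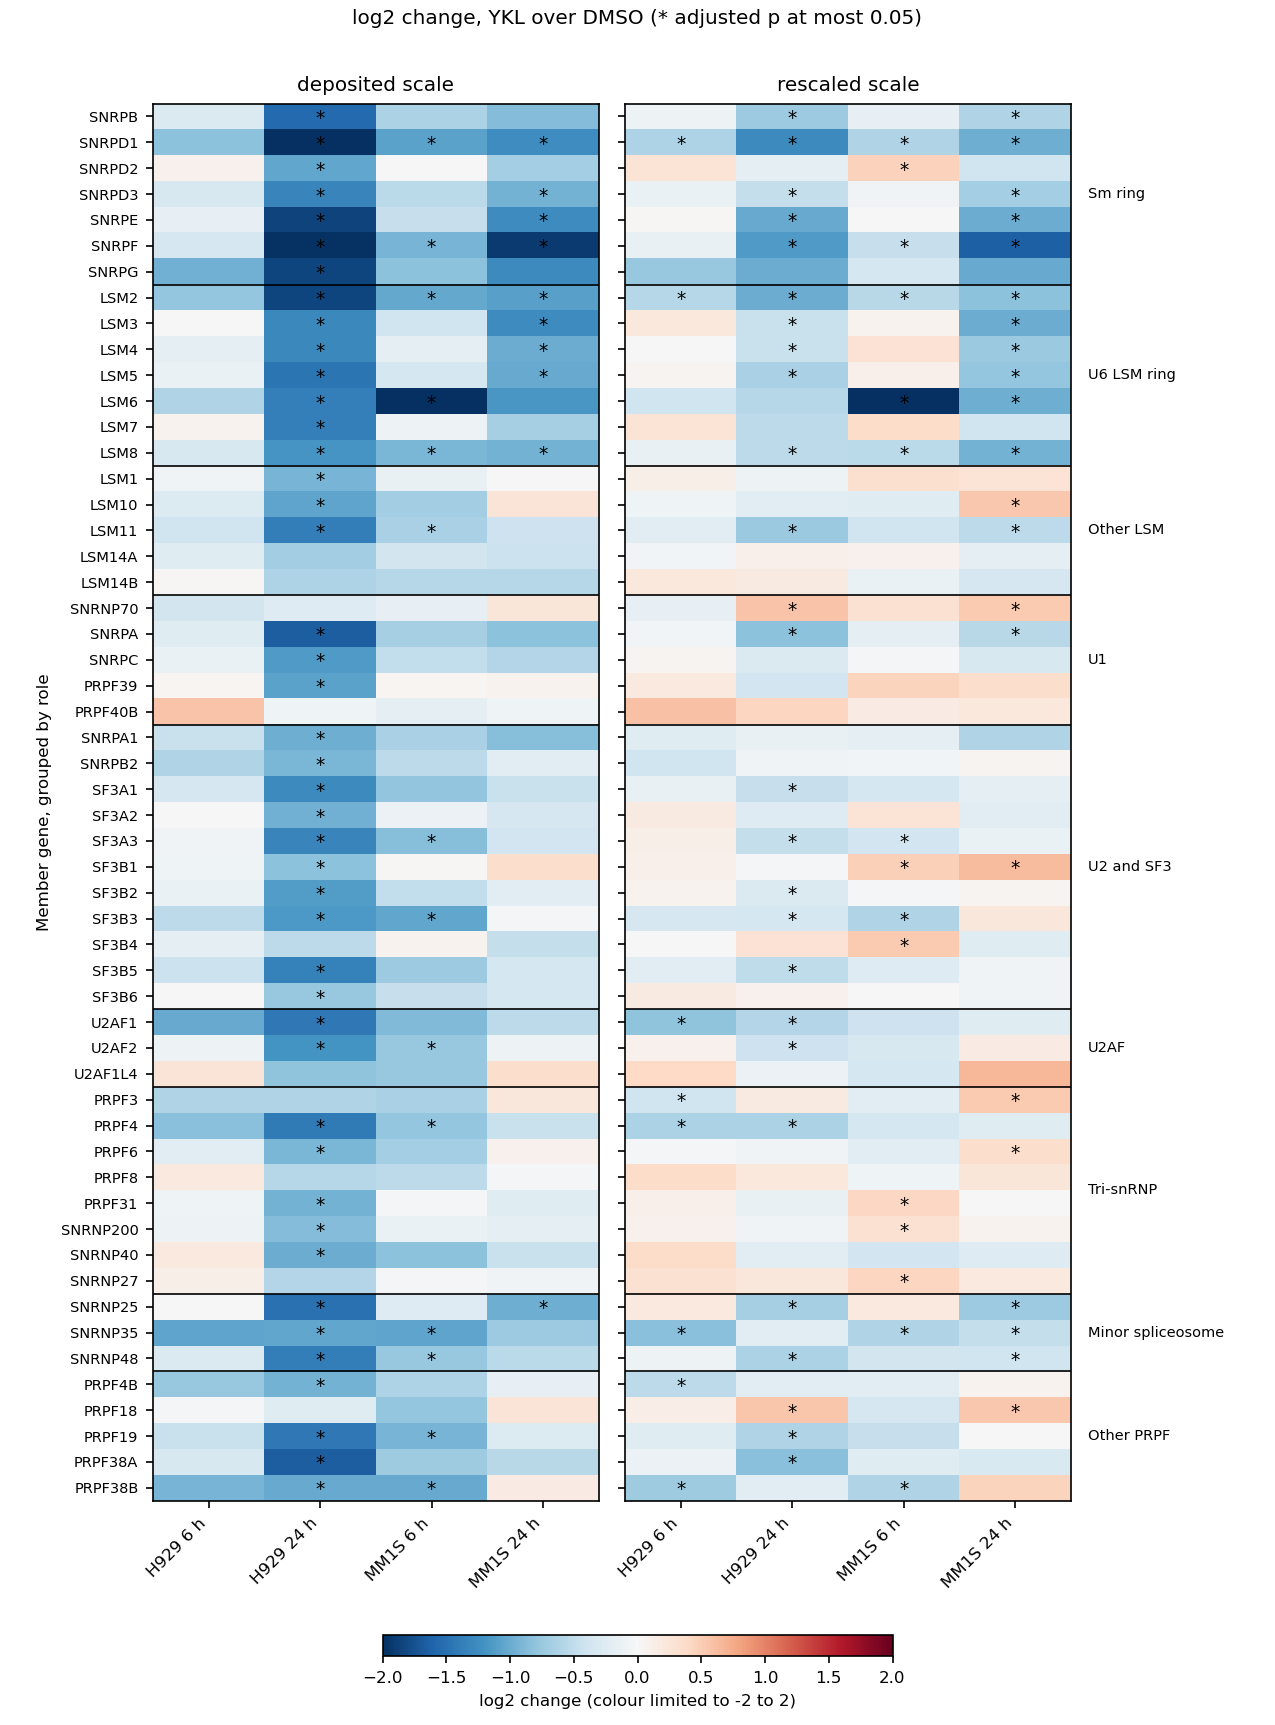
Heat map of the log2 change with YKL over DMSO for tested members (rows, by role) in 4 comparisons (columns), deposited on the left and rescaled on the right, with colour limited to -2 to 2 and stars for a limma adjusted p of at most 0.05. Most Sm ring and U6 LSM ring genes are blue at 24 h in both lines on both scales, with SNRPD2 pale in H929 rescaled (-0.19). The tri-snRNP genes drawn are paler in H929 at 24 h after rescaling, with PRPF4 (-0.63) still the deepest blue of them. In MM1S at 24 h some are paler and others redder, such as PRPF3 (0.23 as deposited, 0.52 rescaled).

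The Sm ring had the lowest median change of any role at 24 h, in both lines and on both scales. All 7 tested Sm genes were lower as deposited in H929 at 24 h (median -1.83) and 4 of 7 in MM1S (median -1.25), against 35.4% and 6.77% of all genes. Rescaled, 5 of 7 were lower in each line (medians -0.99 and -0.98), against 12.5% (H929) and 13.3% (MM1S) of all genes. SNRPF (chr12:95858952-95866140), which makes SmF, had 293, 177 and 379 FPKM with YKL against 956, 1284 and 981 with DMSO in H929 at 24 h. The MM1S values at 24 h were 64.0, 75.2 and 63.0 FPKM with YKL against 254, 354 and 183 with DMSO. Every YKL library lay below every DMSO library in both lines. SNRPF fell by 1.98 ± 0.26 (adjusted p 7e-06) in H929 and by 1.91 ± 0.26 (adjusted p 3.7e-05) in MM1S on the log2 scale, and rescaled its change was -1.14 ± 0.11 and -1.64 ± 0.11. In MM1S at 6 h SNRPF had 271, 255 and 241 FPKM with YKL against 495, 479.8 and 484 with DMSO, without overlap, and was already lower (-0.93 ± 0.26, adjusted p 0.025, and -0.46 ± 0.11, adjusted p 0.0082 rescaled). It was not called in H929 at 6 h (-0.34 ± 0.26).

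SNRPE (chr1:203861599-203871152), which makes SmE, had 92.2, 60.6 and 119 FPKM with YKL against 298, 347 and 308 with DMSO in H929 at 24 h (-1.85 ± 0.26, adjusted p 1.5e-05). The values in MM1S at 24 h were 30.9, 37.0 and 42.3 FPKM with YKL against 91.0, 124 and 61.7 with DMSO (-1.26 ± 0.26, adjusted p 0.0029). The groups did not overlap in either line, and the rescaled change was -1.01 ± 0.10 in H929 and -1.0 ± 0.10 in MM1S. At 6 h SNRPE was not called, with rescaled changes of 0.03 ± 0.10 and 0.0 ± 0.10.

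SNRPD1 (chr18:21612314-21633520), which makes SmD1, was lower at 6 h in both lines once rescaled. At 6 h it had 474, 703 and 774 FPKM with YKL against 833, 1516 and 1112 with DMSO in H929. In MM1S at 6 h it had 217, 226 and 213 FPKM with YKL against 458, 458 and 464 with DMSO. The groups did not overlap in either line. As deposited it was called in MM1S (-1.07 ± 0.31, adjusted p 0.029) and not in H929 (-0.81 ± 0.31, adjusted p 0.19), and rescaled it was called in both (-0.60 ± 0.13 and -0.62 ± 0.13). At 24 h SNRPD1 had 356, 165 and 414 FPKM with YKL against 1297, 1326 and 1173 with DMSO in H929, a change of -2.12 ± 0.31, adjusted p 2.2e-05. In MM1S at 24 h it had 78.6, 83.1 and 95.8 FPKM with YKL against 159.8, 319.7 and 166 with DMSO, a change of -1.25 ± 0.31, adjusted p 0.012.

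SNRPB, which makes SmB, had 97.6, 57.1 and 109 FPKM with YKL against 248, 256 and 252 with DMSO in H929 at 24 h (-1.56 ± 0.27, adjusted p 0.00014). In MM1S at 24 h it had 44.5, 38.6 and 52.2 FPKM with YKL against 61.7, 138 and 66.8 with DMSO. The groups did not overlap there, yet the deposited change of -0.87 ± 0.27 was not called (adjusted p 0.051), while the rescaled one was (-0.61 ± 0.11). At 6 h SNRPB was not called in either line, with deposited changes of -0.30 ± 0.27 in H929 and -0.63 ± 0.27 in MM1S. SNRPD3 was lower at 24 h in both lines on both scales (-1.32 ± 0.28 in H929 and -0.95 ± 0.28 in MM1S as deposited). SNRPD2 was lower in H929 at 24 h as deposited (-1.03 ± 0.29), not called there rescaled (-0.19 ± 0.15), and higher in MM1S at 6 h rescaled (0.47 ± 0.15). SNRPG was lower in H929 at 24 h as deposited (-1.83 ± 0.47) and called in no other of these comparisons.

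**Figure D2:**
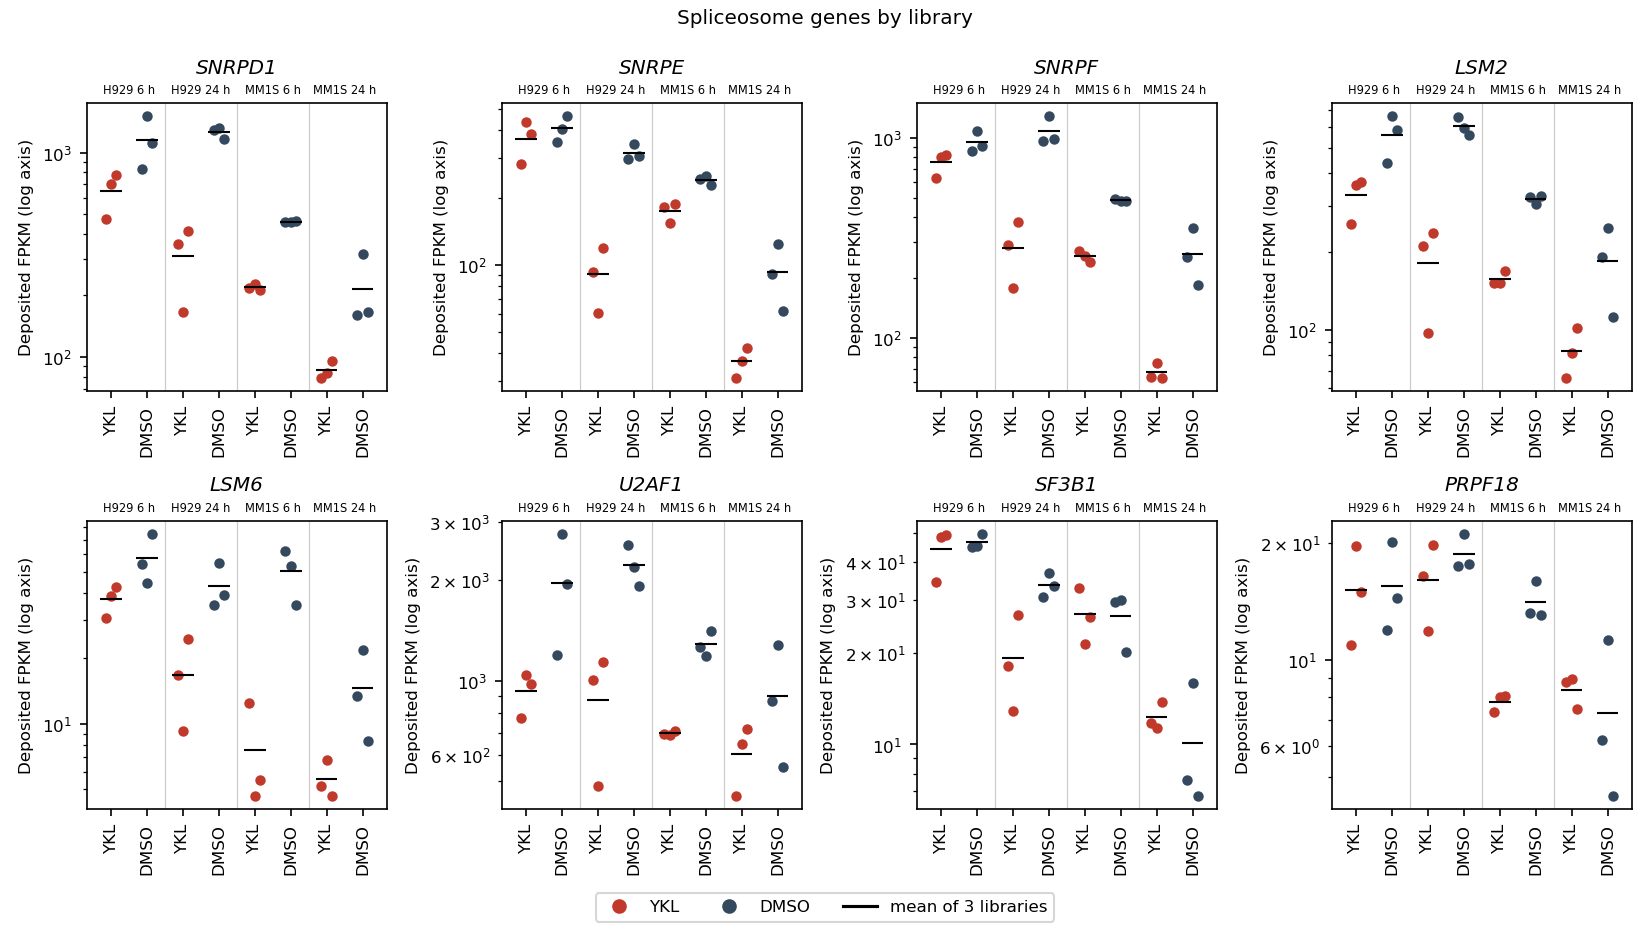
Deposited FPKM (log axis) of 8 members in every library, YKL in red left of DMSO in dark blue for each line and time, with the mean of 3 libraries as a black line. For the 3 Sm genes and LSM2 the YKL libraries lie below the DMSO libraries at 24 h in both lines, while SF3B1 and PRPF18 overlap in MM1S at 24 h.

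In the ring of LSM2 to LSM8 that binds U6, all 7 were lower in H929 at 24 h as deposited (median -1.37) and 5 of 7 in MM1S (median -1.01). Rescaled, 5 of 7 and 6 of 7 were lower (medians -0.53 and -0.81). The shares of all genes were 35.4% and 6.77% as deposited and 12.5% and 13.3% rescaled. LSM2 (chr6:31797396-31806966) had 210.2, 97.3 and 236 FPKM with YKL against 660.0, 597 and 562 with DMSO in H929 at 24 h. The 24 h values in MM1S were 65.5, 81.7 and 102 FPKM with YKL against 191, 248 and 113 with DMSO. At 6 h LSM2 had 256, 360.1 and 372 FPKM with YKL against 437, 665 and 587 with DMSO in H929. In MM1S at 6 h it had 151, 152 and 169 FPKM with YKL against 326, 306 and 326 with DMSO. None of these 4 pairs of groups overlapped. Rescaled, LSM2 was called in all 4, at -0.57 ± 0.15 and -0.99 ± 0.15 in H929 (6 h, 24 h) and -0.55 ± 0.15 and -0.81 ± 0.15 in MM1S. As deposited it was called in all but H929 at 6 h (-0.77 ± 0.30, adjusted p 0.21). With each library left out in turn, the deposited call in MM1S held in 0 of 6 fits at 6 h and 2 of 6 at 24 h. The rescaled 6 h calls held in 2 of 6 (H929) and 4 of 6 (MM1S), and all other LSM2 calls held in 6 of 6.

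LSM6 (chr4:146175718-146191535) had the largest change of any member, in MM1S at 6 h. It had 12.4, 4.68 and 5.54 FPKM with YKL against 62.3, 53.0 and 34.9 with DMSO, which is -2.65 ± 0.36, adjusted p 0.00013 as deposited and -2.22 ± 0.25 rescaled. Without YKL replicate 2, a library with a wide spike-in scatter, the deposited change was -2.41. In H929 at 6 h LSM6 had 30.6, 38.5 and 42.7 FPKM with YKL against 54.2, 44.2 and 74.6 with DMSO, also without overlap, and was not called (-0.60 ± 0.36, adjusted p 0.47). The difference of the response, H929 minus MM1S, was 2.05 ± 0.51, adjusted p 0.1 as deposited and 1.82 ± 0.35, adjusted p 0.012 rescaled. In MM1S at 24 h it had 5.20, 6.82 and 4.65 FPKM with YKL against 13.4, 21.9 and 8.36 with DMSO. It was lower there rescaled (-0.97 ± 0.25) and not called as deposited (-1.17 ± 0.36), and the DMSO libraries, too, stood below those of 6 h. At 24 h in H929 LSM6 had 16.8, 9.26 and 24.4 FPKM with YKL against 35.1, 54.7 and 39.0 with DMSO and was lower as deposited (-1.37 ± 0.36).

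LSM3 was not called at 6 h and was lower at 24 h in both lines. It had 133, 85.6 and 159 FPKM with YKL against 283, 319.6 and 295 with DMSO in H929 at 24 h. For MM1S at 24 h they were 31.7, 34.4 and 44.7 FPKM with YKL against 83.2, 141 and 59.7 with DMSO. The groups did not overlap, and the rescaled change was -0.45 ± 0.10 in H929 and -1.0 ± 0.10 in MM1S. LSM4 (-1.28 ± 0.28 and -1.0 ± 0.28 as deposited), LSM5 (-1.46 ± 0.25 and -1.01 ± 0.25) and LSM8 (-1.18 ± 0.22 and -0.94 ± 0.22) were lower at 24 h in both lines on both scales. LSM8, the subunit that sets the nuclear ring apart from the cytoplasmic one, was also lower in MM1S at 6 h (-0.92 ± 0.22). LSM7 was lower in H929 at 24 h as deposited (-1.37 ± 0.34) and called in no other of these comparisons.

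Other LSM genes differed from the ring. LSM1, which takes the place of LSM8 in the cytoplasmic ring that serves mRNA decay, was lower in H929 at 24 h as deposited (-0.93 ± 0.32) and not called there rescaled (-0.10 ± 0.14). LSM11 and LSM10 belong to the U7 snRNP, which matures the ends of histone mRNAs. LSM11 was lower at 24 h rescaled in both lines (-0.74 ± 0.15 in H929 and -0.53 ± 0.15 in MM1S) and, as deposited, in H929 at 24 h and MM1S at 6 h (-1.39 ± 0.19 and -0.64 ± 0.19). LSM10 was lower in H929 at 24 h as deposited (-1.06 ± 0.30). In MM1S at 24 h LSM10 had 21.8, 24.9 and 23.9 FPKM with YKL against 12.9, 35.4 and 16.2 with DMSO, which overlap. Rescaled it had 56.1, 60.3 and 53.5 rescaled FPKM with YKL against 29.4, 44.2 and 44.9 with DMSO and was higher (0.53 ± 0.15, adjusted p 0.0095). LSM14A and LSM14B, proteins of cytoplasmic RNA granules, were called in none of the 4 comparisons on either scale.

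The U1 genes split. As deposited limma called 0 of them in MM1S at 24 h (6.77% of all genes were lower), with 2 at an unadjusted p under 0.05. SNRPA (U1-A) had 95.4, 60.6 and 128 FPKM with YKL against 255, 322 and 286 with DMSO in H929 at 24 h (-1.65 ± 0.34, adjusted p 0.00074). At 24 h in MM1S it had 25.5, 24.5 and 27.0 FPKM with YKL against 24.1, 96.4 and 41.0 with DMSO, and it was lower once rescaled (-0.55 ± 0.19, adjusted p 0.039). The groups overlapped on both scales, as DMSO replicate 1, a library with a wide spike-in scatter, lay below every YKL library. With each library left out in turn, the rescaled MM1S call held in 1 of 6 fits. SNRNP70 (U1-70K) was the opposite on the rescaled values, with 157, 119 and 131 rescaled FPKM with YKL against 105, 73.0 and 97.4 with DMSO in H929 at 24 h (0.57 ± 0.15, adjusted p 0.0063). Its MM1S values at 24 h were 128, 168 and 165 rescaled FPKM with YKL against 112, 97.6 and 108 with DMSO (0.52 ± 0.15, adjusted p 0.013). On that scale neither line showed overlap. As deposited SNRNP70 was called in neither (-0.27 ± 0.29 and 0.25 ± 0.29). SNRPC (U1-C) and PRPF39, a relative of a yeast U1 protein, were lower in H929 at 24 h as deposited and not called after rescaling. PRPF40B was called in none of the 4.

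In the U2 and SF3 group 10 of 11 genes were lower as deposited in H929 at 24 h (35.4% of all genes). In MM1S at 24 h 0 were (6.77% of all genes), with 1 at an unadjusted p under 0.05 by limma. At that share, 0 of 11 genes does not set the group apart from all genes. The medians were -0.98 and -0.35, and rescaled -0.25 and -0.08. SF3B1 (chr2:197389784-197435093), the subunit that holds the branch site and is recurrently mutated in blood cancers, had 18.2, 12.9 and 26.8 FPKM with YKL against 30.7, 36.7 and 33.3 with DMSO in H929 at 24 h. It was lower as deposited (-0.82 ± 0.28, adjusted p 0.024) and not called once rescaled (-0.02 ± 0.12, adjusted p 0.93). In MM1S at 24 h it had 11.8, 11.3 and 13.8 FPKM with YKL against 7.66, 15.9 and 6.76 with DMSO, which overlap (0.35 ± 0.28, adjusted p 0.58). Rescaled it had 30.4, 27.4 and 31.0 rescaled FPKM with YKL against 17.4, 19.9 and 18.7 with DMSO and was higher (0.64 ± 0.12, adjusted p 0.00032). It was also higher in MM1S at 6 h rescaled (0.47 ± 0.12, adjusted p 0.0094) but not as deposited (0.02 ± 0.28), and it was not called in H929 at 6 h (-0.09 ± 0.28). The response at 24 h differed between the lines, H929 minus MM1S, by -0.66 ± 0.16, adjusted p 0.013 rescaled and by -1.17 ± 0.40, adjusted p 0.12 as deposited.

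SF3B3, a scaffold of SF3B, had 9.28, 7.33 and 7.06 FPKM with YKL against 17.2, 17.5 and 16.8 with DMSO in MM1S at 6 h. It was lower there on both scales (-1.04 ± 0.28, adjusted p 0.022, and -0.61 ± 0.13 rescaled), and not called at 24 h (-0.04 ± 0.28). SF3A3 was lower in H929 at 24 h (-1.31 ± 0.23) and in MM1S at 6 h (-0.85 ± 0.23), on both scales. With each library left out in turn, the SF3A3 call in MM1S at 6 h held in 2 of 6 fits on each scale. SF3A1, SF3B2, SF3B3 and SF3B5 were lower in H929 at 24 h on both scales, SF3B5 by the most as deposited of these 4 (-1.34 ± 0.28). The rescaled SF3B3 call in H929 at 24 h held in 1 of 6 such fits, and those of SF3A1, SF3B2 and SF3B5 in 6 of 6. SNRPA1 and SNRPB2, which make the U2-specific proteins, SF3A2 and SF3B6 were lower in H929 at 24 h as deposited and not called rescaled. SF3B4 was called in MM1S at 6 h as higher once rescaled (0.52 ± 0.14) and not as deposited (0.07 ± 0.29).

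U2AF1, which reads the AG of the 3′ splice site, had 774, 1042 and 978 FPKM with YKL against 1195, 2761 and 1950.0 with DMSO in H929 at 6 h. Every YKL library lay below every DMSO library there, and the DMSO libraries spread widely. It was not called as deposited (-1.01 ± 0.33, adjusted p 0.11) and was lower rescaled (-0.81 ± 0.19, adjusted p 0.0089). At 24 h in H929 U2AF1 had 1004, 484 and 1141 FPKM with YKL against 2553, 2199 and 1926 with DMSO (-1.43 ± 0.33, adjusted p 0.0019, and -0.59 ± 0.19 rescaled). In MM1S it had 694, 689 and 708 FPKM with YKL against 1260.3, 1189.6 and 1412 with DMSO at 6 h (-0.88 ± 0.33, adjusted p 0.087), without overlap. U2AF1 was not called there rescaled either (-0.41 ± 0.19, adjusted p 0.15). At 24 h in MM1S it had 451, 648 and 715 FPKM with YKL against 872, 1276 and 552 with DMSO, which overlap (-0.52 ± 0.33, adjusted p 0.45). Its partner U2AF2, which binds the polypyrimidine tract, was lower in H929 at 24 h on both scales (-1.20 ± 0.24 as deposited) and in MM1S at 6 h as deposited (-0.76 ± 0.24). With each library left out in turn, the rescaled U2AF2 call in H929 held in 1 of 6 fits and the MM1S call in 0 of 6. The paralog U2AF1L4 was called in none of the 4.

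The tri-snRNP genes had medians near 0 once rescaled (-0.07 in H929 and 0.14 in MM1S at 24 h). As deposited 5 of 8 were lower in H929 at 24 h (median -0.89, with 35.4% of all genes lower). In MM1S at 24 h 0 were (median -0.13, with 6.77% of all genes lower), and limma gave 0 at an unadjusted p under 0.05. At that share, 0 of 8 genes does not set the group apart from all genes. PRPF4, a U4/U6 protein, had 8.34, 5.72 and 9.49 FPKM with YKL against 17.8, 27.4 and 22.6 with DMSO in H929 at 24 h and was lower on both scales (-1.42 ± 0.24, adjusted p 9.3e-05, and -0.63 ± 0.17 rescaled). PRPF4 was also lower in MM1S at 6 h as deposited (-0.77 ± 0.24) and in H929 at 6 h rescaled (-0.63 ± 0.17). PRPF3, another U4/U6 protein, was lower in H929 at 6 h rescaled (-0.40 ± 0.11) and higher in MM1S at 24 h rescaled (0.52 ± 0.11). PRPF6, which bridges U5 and U4/U6, was lower in H929 at 24 h as deposited (-0.91 ± 0.27) and higher in MM1S at 24 h rescaled (0.35 ± 0.09). PRPF31, SNRNP200 (the helicase that unwinds U4 from U6) and SNRNP40, a U5 protein, were lower in H929 at 24 h as deposited and not called rescaled. PRPF31, SNRNP200 and SNRNP27 were higher in MM1S at 6 h rescaled (0.42, 0.31 and 0.43) and not called there as deposited. None of these rescaled calls held whichever library was left out. PRPF8, the scaffold around the catalytic core, was called in none. Its changes at 24 h were -0.57 ± 0.28 in H929 and -0.03 ± 0.28 in MM1S as deposited, and of the other sign rescaled (0.21 and 0.24).

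The minor spliceosome removes a small class of introns with its own snRNPs, and its 3 members here belong to U11 and U12. All 3 were lower in H929 at 24 h as deposited (35.4% of all genes) and 2 rescaled (12.5% of all genes). SNRNP35 had 17.8, 14.2 and 20.7 FPKM with YKL against 37.0, 33.8 and 40.8 with DMSO in MM1S at 6 h (-1.05 ± 0.29, adjusted p 0.025). In H929 at 6 h it had 17.4, 30.3 and 27.5 FPKM with YKL against 45, 63.4 and 48.1 with DMSO (-1.05 ± 0.29, adjusted p 0.06). The groups did not overlap in either line, and both were called rescaled (-0.60 ± 0.17 and -0.84 ± 0.17). SNRNP35 was lower at 24 h in H929 as deposited (-1.04 ± 0.29) and in MM1S rescaled (-0.48 ± 0.17). SNRNP25 was lower at 24 h in both lines on both scales (-1.49 ± 0.29 in H929 and -0.97 ± 0.29 in MM1S as deposited) and not called at 6 h. SNRNP48 was lower at 24 h in both lines rescaled (-0.63 ± 0.14 and -0.40 ± 0.14), and as deposited in H929 at 24 h (-1.38 ± 0.24) and MM1S at 6 h (-0.76 ± 0.24).

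PRPF18 (chr10:13586965-13655929), a factor of the second catalytic step, had 16.5, 11.8 and 19.7 FPKM with YKL against 17.5, 21.1 and 17.6 with DMSO in H929 at 24 h. Its 24 h values in MM1S were 8.77, 8.91 and 7.46 FPKM with YKL against 6.21, 11.3 and 4.46 with DMSO. These groups overlap, and neither was called (-0.24 ± 0.27 and 0.25 ± 0.27). Rescaled, it had 15.4, 17.8 and 15.3 rescaled FPKM with YKL against 10.3, 11 and 10.9 with DMSO in H929 and was higher (0.55 ± 0.14, adjusted p 0.0038). In MM1S it had 22.6, 21.6 and 16.7 rescaled FPKM with YKL against 14.1, 14.1 and 12.4 with DMSO and was higher as well (0.54 ± 0.14, adjusted p 0.005), with no overlap in either line. PRPF19, the ubiquitin ligase of the Prp19 complex, and PRPF38A were lower on both scales in H929 at 24 h (-1.43 ± 0.28 and -1.65 ± 0.30 as deposited), and PRPF19 also in MM1S at 6 h as deposited (-0.93 ± 0.28). PRPF4B, a kinase that acts on tri-snRNP proteins, was lower in H929 at 24 h as deposited (-0.94 ± 0.24) and at 6 h rescaled (-0.53 ± 0.12). PRPF38B was lower at 6 h rescaled in both lines (-0.71 ± 0.17 in H929 and -0.60 ± 0.17 in MM1S), and as deposited in H929 at 24 h (-1.0 ± 0.27) and MM1S at 6 h (-1.0 ± 0.27).

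The rings were also set against the SF3A and SF3B genes of the same library, as a difference of mean log2 FPKM that no scaling of a library alters. This measure was chosen after seeing the data and has no test. For the U6 LSM ring in MM1S at 24 h it was 0.43 to 0.65 with YKL against 1.36 to 1.42 with DMSO. In H929 at 24 h it was 0.02 to 0.25 with YKL against 0.52 to 0.57 with DMSO. For the Sm ring it was 2.46 to 2.73 against 3.36 to 3.55 in MM1S and 2.31 to 2.49 against 2.89 to 3.12 in H929 at 24 h, YKL against DMSO. All 4 of these pairs were without overlap. At 6 h the LSM ring did not overlap in MM1S (1.1 to 1.18 with YKL against 1.37 to 1.56 with DMSO) and did in H929 (0.52 to 0.65 against 0.49 to 0.79). The Sm ring overlapped at 6 h in both lines.

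**Figure D3:**
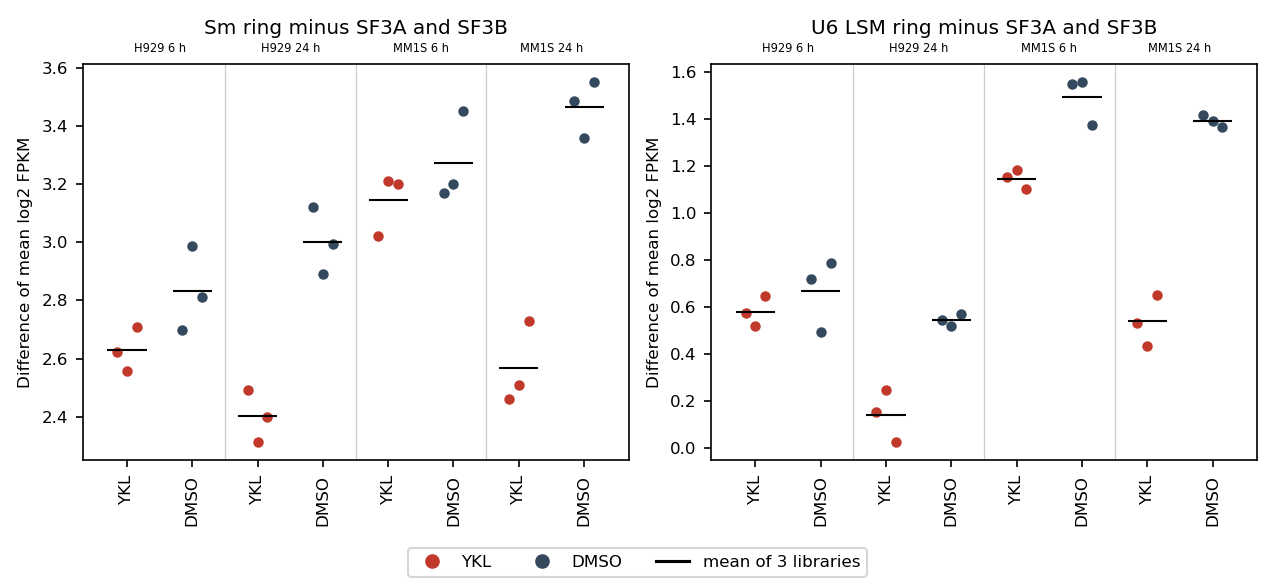
Mean log2 FPKM of the Sm ring (left) and of the U6 LSM ring (right) minus that of the SF3A and SF3B genes in the same library, YKL in red left of DMSO in dark blue, with the mean of 3 libraries as a black line. At 24 h the YKL libraries lie below the DMSO libraries in both panels and both lines, with group means of 0.54 and 1.39 for the LSM ring in MM1S.

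The response of several ring genes was larger at 24 h than at 6 h. In H929 the response at 24 h minus that at 6 h was called lower for 7 members as deposited (6.18% of all genes). They were SNRPE (-1.68 ± 0.37, adjusted p 0.0097), SNRPF (-1.63 ± 0.36), SF3A3 (-1.24 ± 0.33), LSM11 (-0.99 ± 0.26), LSM5 (-1.33 ± 0.36), SNRNP25 (-1.5 ± 0.40) and SNRPB (-1.27 ± 0.38, adjusted p 0.05). Rescaled, 10 were lower (4.65% of all genes), led by SNRPE (-1.04 ± 0.15, adjusted p 0.00011), SNRPF (-0.99 ± 0.16) and SNRNP25 (-0.86 ± 0.17). Rescaled, 2 were higher (5.77% of all genes), PRPF3 (0.58 ± 0.16) and SNRNP70 (0.73 ± 0.21). In MM1S limma called 0 as deposited (0.0805% of all genes at the adjusted threshold). There were 11 at an unadjusted p under 0.05, for which no share of all genes is given. Rescaled, 9 were lower in MM1S (6.28% of all genes), led by SNRPF (-1.18 ± 0.16, adjusted p 5e-05), LSM3 (-1.07 ± 0.15) and SNRPE (-1.0 ± 0.15). The 7 that were higher in MM1S rescaled (4.31% of all genes) were, in order of p, PRPF3 (0.74 ± 0.16, adjusted p 0.0042), PRPF18 (0.89 ± 0.19), PRPF6 (0.57 ± 0.13), SF3B3 (0.84 ± 0.19), PRPF38B (1.05 ± 0.24), LSM10 (0.77 ± 0.21) and LSM6 (1.25 ± 0.35, adjusted p 0.024). LSM6 and PRPF38B had the largest of these differences, and both were lower in MM1S at 6 h.

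These counts, too, turned on single libraries. The 7 in H929 as deposited became 2 without DMSO 6 h replicate 1, YKL 6 h replicate 2 or 3, DMSO 24 h replicate 2 or YKL 24 h replicate 2. They became 4 without DMSO 6 h replicate 3 or DMSO 24 h replicate 1 or 3, 18 without YKL 6 h replicate 1 and 20 without YKL 24 h replicate 3. The 0 in MM1S became 3 without DMSO 24 h replicate 2.

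Between the lines, the response in H929 minus that in MM1S was called for few members. At 6 h limma called 0 as deposited (0.169% of all genes) with 4 at an unadjusted p under 0.05, and rescaled 1 higher, LSM6 (0.725% of all genes). At 24 h it called 0 as deposited (1.36% of all genes at the adjusted threshold) with 19 at an unadjusted p under 0.05. No share of all genes is given for the 4 and the 19, so they show no difference particular to the members. Rescaled at 24 h, 6 were lower (4.32% of all genes), with the smallest p for SF3B1 (-0.66 ± 0.16), LSM10 (-0.76 ± 0.21) and PRPF6 (-0.43 ± 0.13). The 2 that were higher (8.02% of all genes) were LSM3 (0.55 ± 0.15) and SNRPF (0.5 ± 0.16), whose change was smaller in H929. As deposited the 0 at 24 h became 26 without MM1S DMSO replicate 2, 8 without H929 YKL replicate 3 and 1 without H929 YKL replicate 1, and the 0 at 6 h became 1 without MM1S YKL replicate 1. Rescaled, the 8 at 24 h became 5 and 2 without H929 DMSO replicates 2 and 3, 4 and 3 without H929 YKL replicates 1 and 2, and 4 and 3 without MM1S YKL replicates 1 and 3. For these differences the median shift per gene on rescaling, over all genes, was 0.55 (H929) and -0.17 (MM1S) between times. Between lines it was -0.24 (6 h) and 0.5 (24 h).

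The lines share no library, so their rescaled responses can be set side by side. At 24 h 14 genes were lower in both, which is 58.3% of the 24 in H929 and 87.5% of the 16 in MM1S. They were SNRPB, SNRPD1, SNRPD3, SNRPE and SNRPF of the Sm ring, LSM2, LSM3, LSM4, LSM5 and LSM8 of the U6 ring, LSM11, SNRPA, SNRNP25 and SNRNP48. With each library left out in turn, the MM1S call held in 1 of 6 fits for SNRPA, 2 for SNRNP48 and 5 for LSM11. The H929 call of LSM4 held in 3 of 6. The other calls of these 14 genes held in all fits. PRPF18 and SNRNP70 were higher in both, the 2 of H929 and 33.3% of the 6 in MM1S. The PRPF18 calls held in 6 of 6 fits in each line, and those of SNRNP70 in 5 of 6 (H929) and 4 of 6 (MM1S). At 6 h 4 genes were lower in both, LSM2, PRPF38B, SNRNP35 and SNRPD1 (50% of 8 and 44.4% of 9). Of these only SNRPD1 held in both lines whichever library was left out. Across the 55 members the rank correlation between the lines was 0.613 at 6 h and 0.697 at 24 h. The rescaled change at 24 h had a rank correlation of -0.346 (H929) and -0.41 (MM1S) with mean rescaled level, and of 0.252 and 0.337 with gene length. These describe genes measured in the same libraries, and have no test. The overlaps between lines and the rank correlations are given for members only. There is no value for all genes beside them, so they are not shown to be particular to the members.

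**Figure D4:**
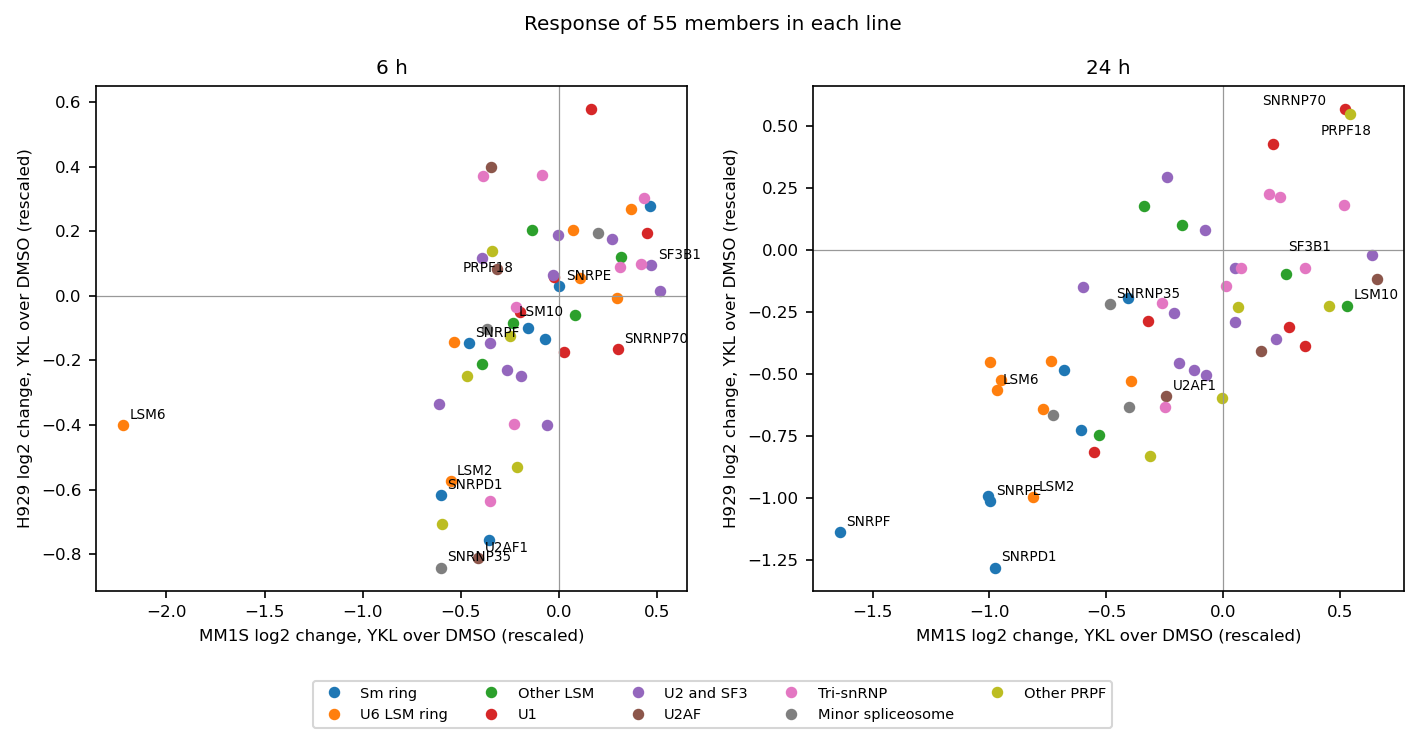
Rescaled log2 change of the 55 members with YKL over DMSO in MM1S (horizontal axis) and H929 (vertical axis) at 6 h and 24 h, colored by role. At 24 h SNRPF, SNRPD1 and SNRPE lie low on both axes while SNRNP70 and PRPF18 lie high on both, and at 6 h LSM6 stands apart on the MM1S axis.

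In DMSO, members stood higher in H929 than in MM1S as deposited, 30 at 6 h (36.4% of all genes) and 54 at 24 h (67.9% of all genes). Rescaled at 6 h, 15 were higher (22.6% of all genes) and 8 lower (31.1%). Rescaled at 24 h, 22 were higher (22.4%) and 6 lower (35.8%), and all 6 of the lower had been higher as deposited. The median shift per gene on rescaling, over all genes, was -0.59 at 6 h and -1.42 at 24 h. SF3B5, a small subunit of SF3B, differed most on both scales. It had 3534, 4603 and 4139 FPKM in H929 and 779, 733 and 751 in MM1S at 6 h (2.43 ± 0.28, and 1.75 ± 0.10 rescaled). At 24 h it had 3888, 4682 and 4182 FPKM in H929 and 234, 489 and 251 in MM1S (3.79 ± 0.28, and 2.0 ± 0.10 rescaled). PRPF6, SF3A3, SF3B4 and LSM11 were also higher on both scales at both times, at 1.0, 0.80, 1.17 and 0.84 rescaled at 6 h. Lower in H929 at both times rescaled were LSM8 (-0.72 at 6 h), PRPF31 (-0.44), PRPF4B (-0.43) and SNRPB2 (-0.40). PRPF18 was lower at 6 h (-0.52) and LSM14A at 24 h (-1.01). As deposited the 30 at 6 h became 19 without H929 DMSO replicate 2.

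Between 24 h and 6 h of DMSO, limma called 0 members in H929 as deposited (0.145% of all genes), with 0 at an unadjusted p under 0.05. In MM1S 51 were lower at 24 h as deposited (56% of all genes), with a median of -1.20. The median shift per gene on rescaling, over all genes, was 0.93. U2AF2 (-1.81 ± 0.24), SF3A3 (-1.5 ± 0.23) and LSM10 (-1.89 ± 0.30) had the smallest p. Rescaled, 13 were lower (5.38% of all genes), led by LSM10 (-0.74 ± 0.15), U2AF2 (-0.75 ± 0.15) and SF3B3 (-0.57 ± 0.13), and U2AF1 alone was higher (0.60 ± 0.19, 10.3% of all genes). The comparison of YKL with DMSO in MM1S at 24 h was made against a DMSO group that stood lower than at 6 h.

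Of 5 lists of partner genes, 57 of 60 genes were tested. As deposited, 46 were lower in H929 at 24 h (35.4% of all genes), 11 in MM1S at 6 h (10% of all genes) and 1 in MM1S at 24 h (6.77% of all genes). In H929 at 6 h limma called 0, with 14 at an unadjusted p under 0.05, for which no share of all genes is given. Rescaled, 18 were lower (12.5% of all genes) and 4 higher (20.8%) in H929 at 24 h, and 6 lower (13.3%) and 6 higher (14.4%) in MM1S at 24 h. At 6 h rescaled, 6 were lower (4.19%) in H929 and 1 higher (633 of 12418 genes), and 9 lower (7.22%) and 5 higher (8.25%) in MM1S. The 6 lower in MM1S at 24 h are a share below that of all genes. The counts by list can be read against the same shares. Of the 12 tested genes of snRNP assembly, which load and import the Sm ring, 11 were lower in H929 at 24 h as deposited and 4 rescaled. GEMIN4 and GEMIN6 of the SMN complex changed there by -1.07 and -1.04 rescaled, and WDR77 of the methylosome by -0.91. Limma called 0 of the 12 in MM1S at 24 h as deposited (3 at an unadjusted p under 0.05). All 5 exon junction complex genes were lower in H929 at 24 h as deposited, and MAGOHB also in MM1S at 24 h (-1.19, and -1.21 rescaled). All 11 tested partners of U5, U2 and the tri-snRNP were lower in H929 at 24 h as deposited, and PPIH was lower at 24 h rescaled in both lines (-1.23 in H929 and -0.77 in MM1S). Of 24 genes of the Prp19 complex and the catalytic steps, 16 were lower in H929 at 24 h as deposited, and rescaled 4 were lower and 3 higher. SLU7, a second step factor as PRPF18 is, was higher at 24 h rescaled in both lines (0.72 in H929 and 0.60 in MM1S). Of 5 partners of the minor spliceosome 3 were lower in H929 at 24 h as deposited.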

How the data were processed

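Libraries read the 3′ ends of polyadenylated RNA, per the labels' protocols (QuantSeq), from lysed H929 and MM1S cells, 24 libraries in 8 groups of 3. The submitters' processing notes name HISAT2, Cuffnorm and the build hg19, with no versions, and the authors deposited 1 FPKM value per gene and library. Whether values were scaled to spike-in RNA is not given in the sources used here. Read depth of the libraries is unknown, which allows no counting interval. The number of unused sample columns was 0, and 0 pairs of libraries were identical. Symbols were matched to RefSeq GRCh38.p14 for positions and promoters; the files hold no coordinates.

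The 12418 genes that reached 1 FPKM in 3 or more libraries entered 1 two-sided limma-trend fit (limma 3.58.1, R 4.3.3) of log2 values with a pseudocount of 1. It held 24 libraries, 8 group means and no covariate. Adjusted p-values are Benjamini-Hochberg values over all genes tested, called at 0.05 or less. A change on the log2(FPKM + 1) scale understates that of low genes. Errors are standard errors. Rescaling divided each library by its median ratio to the geometric mean, over genes for which that mean was 5 FPKM or more. The test was checked on simulated data. The simulation drew noise independently for each gene, with no scale shared across a library. The check therefore does not cover the library-wide scale carried by the deposited values. Medians over roles and lists describe the genes that passed the filter and have no test. Python 3.11.15 and scipy 1.17.1 computed the motifs and rank correlations.

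Of 12 comparisons, 4 set YKL against DMSO, 4 took differences of those responses between lines or times, and 4 compared DMSO groups. Named members are, per YKL comparison, the called members with the 10 smallest p in each direction, and in the others the 3 smallest, with SNRPB, SF3B1, PRPF8, U2AF1 and LSM2 always named. The other members are accounted for by role, and some of them (such as LSM1, LSM7, SNRPA and SNRNP70) are given with values, a choice made after those were seen. The members, roles, 5 pathway lists and motifs were chosen with earlier results of these data known. Alternatives were rescaling, a pseudocount of 0.1, no filter, a filter at 5 FPKM, only the compared libraries, the replicate number as a block, each replicate left out and the 2 libraries with a wide spike-in spread left out. Replicate numbers pair no samples in the labels. A member counted in the totals is not reported by name here.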

Additional observations from a re-analysis of the deposited data

Results flagged for a closer look

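The response in H929 at 24 h differed from that at 6 h, by the limma interaction on the deposited scale, for 7 members; the size is the log2 response at 24 h minus that at 6 h. It was -1.68 for SNRPE, -1.63 for SNRPF, -1.27 for SNRPB, -1.33 for LSM5, -0.99 for LSM11, -1.24 for SF3A3 and -1.5 for SNRNP25. No group of 3 libraries was tested for a single library far from the others.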

How the results depend on the processing

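Rescaling changed the number of members called to 8, 26 and 22 in H929 at 6 h, H929 at 24 h and MM1S at 24 h, to 1 and 8 for the differences between lines at 6 h and 24 h, to 12 and 16 for the differences between times in H929 and MM1S, to 28 for H929 against MM1S in DMSO at 24 h and to 14 for MM1S DMSO over time. With no filter the counts were 6 in MM1S at 6 h, 6 in MM1S at 24 h and 4 for the time difference in H929. With only the compared libraries they were 33 in MM1S at 6 h, 1 in MM1S at 24 h, 4 for the time difference in H929 and 32 for MM1S DMSO over time. Without the 2 libraries with a wide spike-in spread the count in MM1S at 6 h was 2. Leaving out each replicate gave 0 to 2 in H929 at 6 h, 30 to 49 in H929 at 24 h, 1 to 6 in MM1S at 6 h, 3 to 18 in MM1S at 24 h, 0 to 1 and 0 to 26 for the line differences at 6 h and 24 h, 2 to 20 and 0 to 3 for the time differences in H929 and MM1S, and 19 to 29 for H929 against MM1S in DMSO at 6 h. On the rescaled values, a second change chosen after seeing the data, they were 3 to 9 in H929 at 6 h, 5 to 13 in MM1S at 6 h and 2 to 10 for the line difference at 24 h. Among alternative values of single members 476 kept direction and side of the threshold, 101 lost the call, 14 gained it and 7 changed sign: SF3B1 in H929 at 6 h to 0.10 rescaled and 0.071 without YKL replicate 1, PRPF8 to 0.21 in H929 and 0.24 in MM1S at 24 h rescaled and 0.37 in MM1S at 24 h without DMSO replicate 2, and SF3B1 in MM1S at 6 h to -0.16 without DMSO replicate 3 and -0.13 without YKL replicate 1. Leaving out each replicate gave SF3B1 -0.18 to 0.071 in H929 and -0.16 to 0.16 in MM1S at 6 h, and PRPF8 -0.29 to 0.37 in MM1S at 24 h. The causes were not tested. With the replicate number as a block, 0, 45, 11 and 8 members were called in the 4 YKL comparisons; same-numbered libraries had correlations of -0.11 to 0.18, so the numbers were not taken as pairs. The unknown depth limits what low members such as LSM11 can show.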
